A study of Mus musculus with 6 samples.

Results

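Plscr2, 9130401M01Rik, Lhfpl2, Aspg, Fam151a, Adprhl1, Atp4b, Rspo4, Ostn and Ppef1 are 10 of the 23282 rows counted in brown adipose tissue (BAT) of wild-type and Letmd1 KO mice, and they were chosen by their counts in these same mice, as genes with large differences between the genotypes that all mice shared. Few of these genes are well known in BAT. The choice used the comparison of the genotypes itself, so the genotype difference of each of the 10 genes is given here as a description, without a test. All 10 passed the filter on low counts that left 12995 rows for testing. Plscr2, Adprhl1, Atp4b, Rspo4, Ostn and Ppef1 passed only through the genotype in which they were high, since no mouse of the other genotype held more than 5 counts.

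RNA came from the whole interscapular BAT depot of 3 wild-type and 3 Letmd1 KO mice, all male, on the C57BL/6N strain and 5 weeks of age. Both Letmd1 alleles of the KO mice were null in every tissue, from a knockout-first allele made in 1 embryonic stem cell clone, in which a lacZ and neomycin resistance cassette sits in the intron after exon 2. The knockout is thus not restricted to brown adipocytes, and the null allele carries the inserted genes. LETMD1 is a protein of the mitochondrial matrix, and the study used the comparison to ask which transcripts of BAT depend on it. The libraries were QuantSeq libraries, which read the 3′ end of each polyadenylated transcript, so that a gene is counted at its last exon.

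Each mouse gave between 6669577 and 14574273 counts, and a floor of 3 counts corresponded to between 0.176 and 0.397 CPM, where CPM are counts scaled to a common size of library by the TMM method. The floor and all counting intervals below cover counting error only. Letmd1, a plus-strand gene of chromosome 15 (GRCm38, 100469023 to 100479164), had 5658, 6490 and 5266 counts across the wild-type mice against 0, 0 and 1 across the KO mice, so all 6 labels matched the counts at its 3′ end. Of the brown adipocyte markers, 8 of 10 were lower in Letmd1 KO BAT and 0 were higher. Their summed level was between 40790 and 46250 CPM in wild-type mice and between 12860 and 16210 in KO mice. Most of that sum was Fabp4, with 28200 CPM in wild-type mouse 1 and 10220 CPM in KO mouse 1. Ucp1, the uncoupling protein of brown adipocytes, went from 6328 to 382 CPM, and Cidea, a lipid droplet protein, from 4605 to 1324 CPM, so that both defining markers were well above the floor in all 6 mice. In a whole depot, fewer cells of a type and less RNA per cell cannot be told apart.

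The 10 genes fall into 4 kinds of protein. Rspo4 and Ostn encode secreted factors, an R-spondin that strengthens Wnt signals at the cell surface and a peptide, also called musclin, that binds the clearance receptor of natriuretic peptides. Plscr2, Lhfpl2 and Atp4b encode membrane proteins, of the phospholipid scramblases, the LHFPL tetraspans and the β subunits of ion pumps. Aspg, Adprhl1 and Ppef1 encode an asparaginase, a relative of the hydrolases that take ADP-ribose off proteins, and a protein phosphatase with calcium-binding EF hands, while the products of 9130401M01Rik and Fam151a are little described. BAT itself is a tissue of adipocytes full of mitochondria, laced with capillaries and sympathetic nerves and bordered by muscle.

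RefSeq promoters of GRCm38.p6, from 250 bases before to 50 bases after the transcript start, were at hand for 6 of the 10 genes, and 4 of them are shown with the CG dinucleotides in capitals because they are the most and the least CG-rich of the set. Rspo4 (chr2:151842677-151842976, plus strand) and Lhfpl2 (chr13:94057546-94057845, plus strand) moved in opposite directions, as did Aspg (chr12:112106433-112106732, plus strand) and Ppef1 (chrX:160719923-160720222, minus strand).
Rspo4: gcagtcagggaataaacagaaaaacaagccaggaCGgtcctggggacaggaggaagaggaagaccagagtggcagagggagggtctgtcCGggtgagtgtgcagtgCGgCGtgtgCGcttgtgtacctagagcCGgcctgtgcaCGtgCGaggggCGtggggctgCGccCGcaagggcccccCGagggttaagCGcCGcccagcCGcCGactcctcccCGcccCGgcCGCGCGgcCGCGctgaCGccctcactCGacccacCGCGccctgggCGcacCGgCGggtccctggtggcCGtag
Lhfpl2: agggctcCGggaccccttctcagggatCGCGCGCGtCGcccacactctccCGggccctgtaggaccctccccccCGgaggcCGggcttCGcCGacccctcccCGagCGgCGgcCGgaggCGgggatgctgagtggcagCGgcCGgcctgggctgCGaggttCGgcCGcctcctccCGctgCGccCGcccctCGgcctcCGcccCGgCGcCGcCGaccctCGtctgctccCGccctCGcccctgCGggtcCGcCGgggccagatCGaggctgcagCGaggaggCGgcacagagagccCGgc
Aspg: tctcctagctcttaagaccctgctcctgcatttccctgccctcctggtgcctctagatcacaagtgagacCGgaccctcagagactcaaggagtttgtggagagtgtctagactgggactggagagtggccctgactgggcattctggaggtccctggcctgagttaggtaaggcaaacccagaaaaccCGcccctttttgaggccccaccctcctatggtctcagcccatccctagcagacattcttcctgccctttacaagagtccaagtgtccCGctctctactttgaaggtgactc
Ppef1: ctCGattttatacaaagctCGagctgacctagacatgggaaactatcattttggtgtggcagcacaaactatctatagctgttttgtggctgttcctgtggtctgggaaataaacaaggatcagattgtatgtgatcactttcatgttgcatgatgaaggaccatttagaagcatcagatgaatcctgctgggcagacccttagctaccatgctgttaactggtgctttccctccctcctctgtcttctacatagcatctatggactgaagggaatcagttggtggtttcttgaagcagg

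The promoter of Lhfpl2, which was high in KO BAT, held 40 CG dinucleotides, more than 96.1% of the 32851 mouse promoters in the table, and that of Rspo4, which was high in wild-type BAT, held 31, more than 89.4%. Aspg, high in wild-type BAT, held 3 and Ppef1, high in KO BAT, held 2, against a median of 7 over all promoters. The Ppef1 window lies at a RefSeq start inside the gene, whose annotated 5′ end is at 160735765, and no window at that end was at hand. Among these windows, a high and a low CG content each occurred on both sides of the comparison. On the KO side, the low content was that of this inner start. The promoters of Adprhl1 and Fam151a held 6 and 4. Searched on both strands, the letters TATAAA of the TATA box occurred in 13.6% of all promoters and in that of Ppef1 alone among the 6. There they lay at -244 bases from the start, on the strand opposite to the printed one, which reads tttata. The ATF4 composite element (TGATGNAAN, in 3.95% of promoters), the cAMP response element (TGACGTCA, in 1.79%), the estrogen-related receptor element (TCAAGGTCA, in 0.423%), the PPAR direct repeat (a repeat of AGGTCA with 1 base between, in 0.0396%) and the AP-1 element (TGANTCA, in 7.81%) were not among the letters of these 6 windows.

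The values of the 10 genes did not overlap between the genotypes for any gene, 5 being higher and 5 lower in Letmd1 KO BAT. The values of 57.3% of all genes tested did not overlap (30.1% higher and 27.2% lower in KO BAT), and 46.0% passed an adjusted p of 0.05 in the quasi-likelihood test of edgeR after adjustment by the method of Benjamini and Hochberg (23.7% higher and 22.3% lower in KO BAT). The 10 genes all passed it too, as the choice fixed, and nothing is read from that count. By the size of the log2 fold change, they ranked between 5 (Ppef1) and 189 (9130401M01Rik) of 12995. The gap between the genotypes, taken as the lowest CPM of the high genotype over the highest of the low one, was widest for Plscr2 at 209-fold and narrowest for Atp4b at 8.15-fold among the 7 genes with counts in both genotypes.

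**Figure D1:**
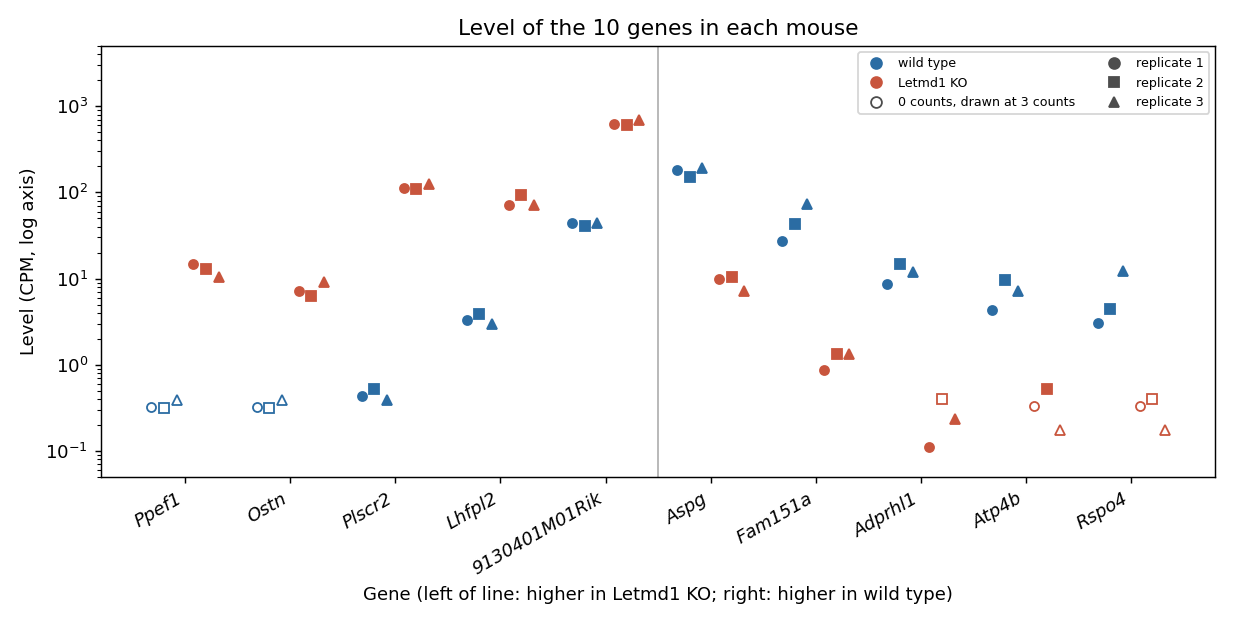
Level of each of the 10 genes in each mouse, in CPM on a log axis, with wild-type mice in blue, Letmd1 KO mice in red, and one marker shape per replicate number; open symbols are mice with 0 counts, drawn at the level of 3 counts. For all 10 genes the mice of one genotype sit above all mice of the other, with open symbols in all 3 mice of the low genotype for Ppef1, Ostn and Rspo4.

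How far the low genotype fell differed between the genes. A gene was called a switch if all mice of one genotype were at or under 3 counts while the other genotype had a mean of at least 20 counts and more than 3 in each mouse. Among all 23282 rows, 110 (0.472%) met this, 102 of them high in KO BAT and 8 in wild-type BAT, and without wild-type mouse 2 the number was 168. Of the 10 genes, Ppef1, Ostn and Rspo4 met it. Plscr2, Adprhl1 and Atp4b missed it by 1 or 2 counts in 1 or 2 mice, and 9130401M01Rik, Lhfpl2, Aspg and Fam151a, with 8 or more counts in every mouse, were graded differences and not switches. Rspo4 was 1 of the 8 switches that were high in wild-type BAT, beside Letmd1 itself, Cyp2b10, Ube2ql1, Chrnb4 and the small nucleolar RNAs Snora47, Snora21 and Snora20, and the other 7 had between 1 and 3 counts in at least 1 KO mouse.

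Rspo4, on chromosome 2 from 151842927 to 151874668 (plus strand), had 28, 42 and 93 counts across the wild-type mice, or 3.02, 4.45 and 12.1 CPM. It had 0 counts in all 3 KO mice. The wild-type mice spanned 4.02-fold, the widest spread among the 10 genes in their high genotype, and no KO mouse had a read. The wild-type level of 6.53 ± 4.90 CPM (SD, n = 3) was at least 21.7-fold above the KO level, with the KO level set at 3 counts in each library, and at least 12.4-fold above it without wild-type mouse 3.

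Of the other R-spondins, Rspo3 had 4, 12 and 11 counts in wild-type and 18, 22 and 28 in KO mice, with a log2 fold change of 1.04 that did not pass the test (edgeR adjusted p = 0.126), while Rspo1, with between 3 and 11 counts, and Rspo2, with between 0 and 3, were too low to be tested. In the whole list of R-spondin and Wnt signalling genes, 10 of 16 were tested, and 1 was higher, 3 were lower and 6 did not pass. Their median log2 fold change was -0.35, beside 0.03 over all genes tested. Lgr6, a receptor of R-spondins, fell from 157, 191 and 97 counts to 52, 14 and 65 (log2 fold change -2.11, standard error 0.35, edgeR adjusted p = 0.0011), and the KO mice were all below the wild-type mice. The related receptor Lgr4 had a log2 fold change of -0.39 (edgeR adjusted p = 0.154), and Lgr5 had at most 1 count per mouse. Axin2, a feedback target of Wnt signalling, fell by 1.39 on the log2 scale (edgeR adjusted p = 0.0105) and the coreceptor Lrp6 by 0.64 (edgeR adjusted p = 0.0183). Nkd1, an inhibitor that is itself a target of the pathway, rose by 1.05 (edgeR adjusted p = 0.0445). The call of Lrp6 was lost without wild-type mouse 1, KO mouse 1 or KO mouse 3 (values between -0.59 and -0.50) and with library size alone (-0.22), and that of Nkd1 without wild-type mouse 1 or 3 or KO mouse 1 or 3 (0.81 to 1.02) and after quantile normalization (0.53).

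Ostn, on chromosome 16 from 27307489 to 27351212 (plus strand), had 0 counts in all 3 wild-type mice. The KO mice had 65, 48 and 156 counts, or 7.14, 6.35 and 9.18 CPM, within 1.44-fold of each other. No wild-type mouse had a read while each KO mouse did, and the KO level of 7.56 ± 1.46 CPM (SD, n = 3) was at least 22.0-fold above the wild-type level set at 3 counts in each library.

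The clearance receptor Npr3, to which the Ostn peptide binds, rose by 0.80 on the log2 scale (505, 969 and 630 counts in wild-type mice, 1002, 1075 and 2769 in KO mice, edgeR adjusted p = 0.0168), a call lost without KO mouse 3 (0.66). Npr1, the signalling receptor of the atrial and brain peptides, fell by 0.85 (471, 381 and 510 counts against 283, 221 and 462, edgeR adjusted p = 0.0044), and with scaling by library size alone its value was -0.42 and no longer passed. The scaled levels of both receptors did not overlap between the genotypes. The receptor Npr2 and the kinase Prkg1 did not pass, at -0.09 and 0.04. The peptide genes themselves were near absent, with at most 6 counts per mouse for Nppa, at most 2 for Nppc and 0 in all mice for Nppb. Of the 8 genes of this list 4 were tested, 1 was higher and 1 lower, and the median was -0.02.

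Plscr2, on chromosome 9 from 92275602 to 92297752 (plus strand), had 4, 5 and 3 counts across the wild-type mice, or 0.431, 0.530 and 0.391 CPM. The KO mice had 1018, 838 and 2146 counts, or 112, 111 and 126 CPM. The KO mice lay within 1.14-fold of each other and far above the wild-type mice. The KO level of 116 ± 8.57 CPM was 258-fold the wild-type level of 0.451 ± 0.0715 CPM (SD, n = 3 each), and since only 12 counts stood behind all wild-type mice, the ratio of the pooled counts had a 95% counting interval from 150 to 506. The log2 fold change was 7.96 (standard error 0.18).

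Plscr1, which ends 3324 bases before Plscr2 starts, had 1, 2 and 2 counts in wild-type and 28, 19 and 16 in KO mice. The ratio of its pooled levels was 9.87 (95% counting interval 4.02 to 31.5), and it rose (edgeR adjusted p = 0.00381), though after quantile normalization its log2 value was 1.34 and did not pass. Plscr4, the second gene on the other side of Plscr2, had 55, 61 and 52 against 81, 78 and 212 counts and a log2 fold change of 0.73 (edgeR adjusted p = 0.0207), a call lost without wild-type mouse 1 or 2 or KO mouse 3 (0.59 to 0.72) and after quantile normalization (0.38). Plscr5, the second gene on the side of Plscr1, had 2 counts in 1 KO mouse and 0 elsewhere. Plscr3, which lies elsewhere, had a log2 fold change of 0.30 (edgeR adjusted p = 0.144). Within this gene cluster, Plscr5 was near 0 in all mice and the other 3 genes were higher in KO BAT, Plscr2 by far the most.

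Among the genes that flip phospholipids back to the inner leaflet, some were lower. Atp8a1 fell by 1.15 on the log2 scale (edgeR adjusted p = 0.00148) and Tmem30a, the subunit that such flippases share, by 0.49 (edgeR adjusted p = 0.0185). The call of Tmem30a was lost without wild-type mouse 1 or 2 or KO mouse 1 or 3 (-0.48 to -0.40), and it did not pass with library size alone (-0.07) or after quantile normalization (-0.28). The scramblases Ano6 and Xkr8 and the flippase Atp11a did not pass, at -0.03, 0.48 and 0.51. In all, 9 of 10 genes of this list were tested, 2 were higher, 3 lower and 4 did not pass, with a median of 0.30.

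Lhfpl2, on chromosome 13 from 94057796 to 94195409 (plus strand), had 31, 37 and 23 counts across the wild-type mice, or 3.34, 3.92 and 2.999 CPM. It had 645, 706 and 1199 counts in the KO mice, or 70.9, 93.4 and 70.5 CPM. The lowest KO mouse stood 18.0-fold above the highest wild-type mouse. The level went from 3.42 ± 0.467 to 78.3 ± 13.1 CPM (SD, n = 3 each), a 22.9-fold difference at a log2 fold change of 4.5 (standard error 0.19).

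Of the 5 other LHFPL genes in the files, Lhfpl1 and Lhfpl3 had at most 2 counts per mouse, Lhfpl5 had 0, and the 2 that could be tested were both higher in KO BAT. Lhfp, the founding member of the family, rose from 79, 57 and 45 counts to 164, 194 and 512 (log2 fold change 1.85, standard error 0.24, edgeR adjusted p = 0.000276). Lhfpl4, a protein of inhibitory synapses, went from 9, 3 and 2 counts to 19, 10 and 37 (log2 fold change 1.82, edgeR adjusted p = 0.0254), a call lost without wild-type mouse 2 or 3 or KO mouse 1 or 3 (1.53 to 1.75) and after quantile normalization (0.78). The neighbours of Lhfpl2 that were tested, Arsb, Scamp1 and Ap3b1, did not pass, with values of -0.01, 0.14 and 0.14.

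Atp4b, on chromosome 8 from 13386205 to 13396825 (minus strand), is the β subunit of the proton pump that acidifies the stomach. It had 40, 90 and 55 counts across the wild-type mice, or 4.31, 9.54 and 7.17 CPM, and 0, 4 and 0 in the KO mice. All wild-type mice were above the KO mice, of which 2 had no read. The wild-type level was 7.01 ± 2.62 CPM (SD, n = 3). On the pooled counts of 185 against 4 it was 59.0-fold the KO level (95% counting interval 22.7 to 219), and the log2 fold change was -5.67 (standard error 0.84). Since all 4 KO counts were in KO mouse 2, the log2 value was -9.20 without that mouse and -4.77 without KO mouse 3.

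The catalytic partner of Atp4b in the stomach, Atp4a, had 0 counts in all 6 mice, as had the related pump Atp12a. The parietal cell genes Gif and Slc26a7 were also at 0, and the summed level of the parietal cell markers was at most 0.294 CPM. Atp4b transcripts were therefore counted in wild-type BAT without those of either proton pump. Atp1a4, of the sodium pumps, had 0 counts in wild-type and 5, 4 and 3 in KO mice and was not tested.

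Of the β subunits, the nearest relatives of Atp4b, Atp1b1 fell by 0.68 (edgeR adjusted p = 0.0193), a call lost without wild-type mouse 2 (-0.55) and with library size alone (-0.26). Atp1b2 and Atp1b3 did not pass, at -0.39 and -0.12, and Atp1b4 had at most 6 counts per mouse. The FXYD proteins, small regulators of the sodium pump, were split. Fxyd5 rose by 2.18 (edgeR adjusted p = 7.37e-05), Fxyd2 by 2.49 (edgeR adjusted p = 0.00369) and Fxyd6 by 1.34 (edgeR adjusted p = 0.0191), a call lost without KO mouse 2 (1.01) and after quantile normalization (0.96), whereas Fxyd1 fell by 1.28 (edgeR adjusted p = 0.00149). The list of pumps had 10 of 14 genes tested, 5 higher, 3 lower and 2 that did not pass, with a median of 0.52.

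Adprhl1 lies on the same stretch of chromosome 8, from 13221663 to 13254162 (minus strand). It had 80, 141 and 91 counts across the wild-type mice, or 8.62, 14.95 and 11.9 CPM, and 1, 0 and 4 in the KO mice. The groups were far apart, with the KO mice at 0.235 CPM or less. The wild-type level was 11.8 ± 3.16 CPM (SD, n = 3). On 312 against 5 pooled counts it was 79.6-fold the KO level (95% counting interval 33.8 to 247), and the log2 fold change was -6.23 (standard error 0.51), or -7.31 without KO mouse 3, which held 4 of the 5 counts.

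Adprhl1 and Atp4b are 132.0 kb apart with 3 genes between them that are in the files, and both were almost absent from KO BAT. Those between them were not. Dcun1d2, whose 3′ end lies 1801 bases from the start of Adprhl1, had a log2 fold change of -0.42 (standard error 0.18, edgeR adjusted p = 0.0834). Tmco3 was at -0.0029 and Tfdp1 at 0.39 (edgeR adjusted p = 0.126). Outside the pair, Grtp1, Lamp1 and Tmem255b had values of 0.06, -0.02 and 0.25 and did not pass, and Grk1, with at most 4 counts per mouse, was not tested. The low KO level of the pair was thus not seen in the 6 tested genes around them.

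**Figure D2:**
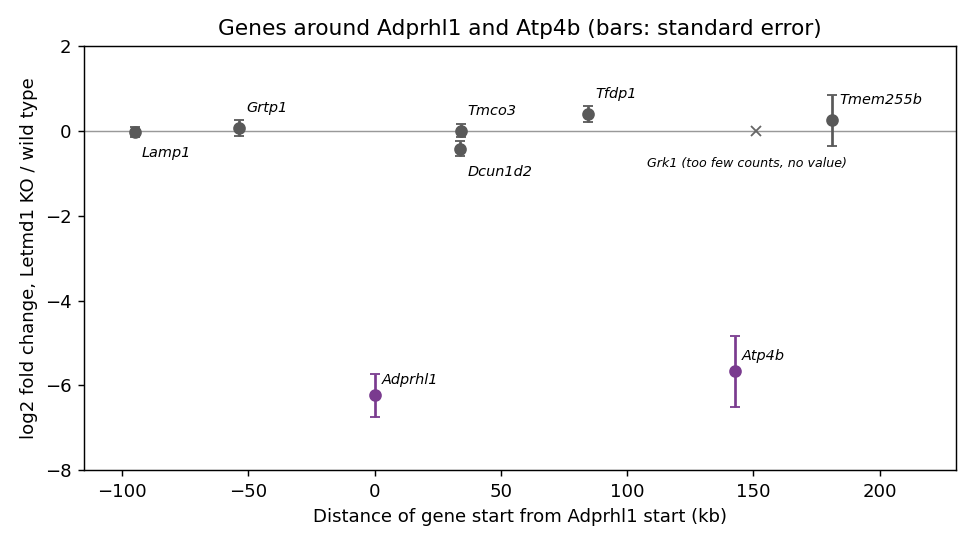
Log2 fold change (Letmd1 KO over wild type, bars are standard errors) of Adprhl1, Atp4b and their neighbours against the distance of each gene's start from that of Adprhl1 in kb; purple points are the pair, grey points its neighbours and the cross is Grk1, which was not tested. Adprhl1 and Atp4b lie at -6.23 and -5.67 while the tested neighbours lie between -0.42 and 0.39.

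The hydrolases related to Adprhl1 had small differences. Adprh, which removes ADP-ribose from arginine, had a log2 fold change of 0.32 (edgeR adjusted p = 0.0411) that was lost without any 1 of the 6 mice (0.27 to 0.35), and Adprhl2, with at most 54 counts, had one of -0.23 (edgeR adjusted p = 0.702). Among the other enzymes of ADP-ribose metabolism, Macrod1, a mitochondrial ADP-ribose hydrolase, fell by 1.11 (edgeR adjusted p = 9.66e-05), the deacylating hydrolase Oard1 by 0.63 (edgeR adjusted p = 0.0238) and the polymerase Parp1 by 0.55 (edgeR adjusted p = 0.00196). The call of Oard1 was lost without wild-type mouse 3 or KO mouse 1 or 2 (-0.61 to -0.46), and with library size alone Parp1 stood at -0.13 and Oard1 at -0.21 and neither passed. Macrod2 and Parg did not pass, at -0.54 and -0.15. All 7 genes were tested, 1 was higher, 3 lower and 3 did not pass, with a median of -0.54.

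Aspg, on chromosome 12 from 112106679 to 112127559 (plus strand), had 1700, 1440 and 1456 counts across the wild-type mice, or 183, 153 and 190 CPM. It had 89, 78 and 122 counts in the KO mice, or 9.78, 10.3 and 7.18 CPM. The mice of each genotype lay close together, within 1.24-fold in the wild type, and the KO mice kept a level well above the floor. The level went from 175 ± 19.8 to 9.09 ± 1.68 CPM (SD, n = 3 each), 19.3-fold lower in KO BAT at a log2 fold change of -4.29 (standard error 0.17).

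The relatives of Aspg, Asrgl1 at -0.44 and the lysosomal Aga at -0.17, did not pass the test. Asns, which makes asparagine, rose from 53.8 ± 7.43 to 85.3 ± 5.00 CPM (SD, n = 3 each, log2 fold change 0.66, edgeR adjusted p = 0.00249). Nars, the cytosolic asparaginyl-tRNA synthetase, rose by 1.04 (edgeR adjusted p = 6.66e-05), whereas its mitochondrial counterpart Nars2 was at 0.06 (edgeR adjusted p = 0.845). The aspartate aminotransferases Got1 and Got2 rose by 2.50 (edgeR adjusted p = 2.46e-05) and 1.37 (edgeR adjusted p = 4.87e-05). All 7 genes were tested, 4 were higher, 0 lower and 3 did not pass, with a median of 0.66, and the 4 calls held under all alternatives run, leaving out each mouse included.

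Ppef1, on the X chromosome from 160623094 to 160735765 (minus strand), had 0 counts in all 3 wild-type mice. The KO mice had 134, 99 and 179 counts, or 14.7, 13.1 and 10.5 CPM. No wild-type mouse had a read, and the KO mice lay within 1.40-fold of each other. The KO level of 12.8 ± 2.12 CPM (SD, n = 3) was at least 37.2-fold above the wild-type level set at 3 counts in each library.

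Its closest relative Ppef2 had 0, 2 and 0 counts in wild-type and 3, 2 and 15 in KO mice and was not tested. Ppp5c, a more distant relative, fell by 0.41 (edgeR adjusted p = 0.021), a call lost without wild-type mouse 2 or KO mouse 1 or 3 (-0.43 to -0.33), and with library size alone its value turned to 0.00713 and after quantile normalization it was -0.29 and did not pass. Of calcineurin, another phosphatase under calcium control, Ppp3cb fell by 0.47 (edgeR adjusted p = 0.0269) and Ppp3r1, whose levels overlapped between the genotypes, by 0.50 (edgeR adjusted p = 0.0431), while Ppp3ca rose by 0.28 (edgeR adjusted p = 0.0342) and Ppp3cc by 0.98 (edgeR adjusted p = 0.048). None of these 4 calls held without each mouse in turn. That of Ppp3cb was lost without wild-type mouse 2 or 3 or KO mouse 1 or 2 (-0.47 to -0.39), that of Ppp3cc without wild-type mouse 2 or any 1 of the KO mice (0.91 to 1.18), that of Ppp3r1 without wild-type mouse 1 or 2 or any 1 of the KO mice (-0.55 to -0.31), and that of Ppp3ca without any 1 of the wild-type mice, KO mouse 1 or KO mouse 3 (0.26 to 0.29). With library size alone Ppp3cb stood at -0.05 and Ppp3r1 at -0.08, and after quantile normalization Ppp3r1 was at -0.28 and Ppp3cc at 0.91, none of which passed. The calmodulin genes Calm2 and Calm3 did not pass, at 0.17 and 0.25. Of this list 8 of 9 genes were tested, 2 were higher, 3 lower and 3 did not pass, with a median of 0.18.

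**Figure D3:**
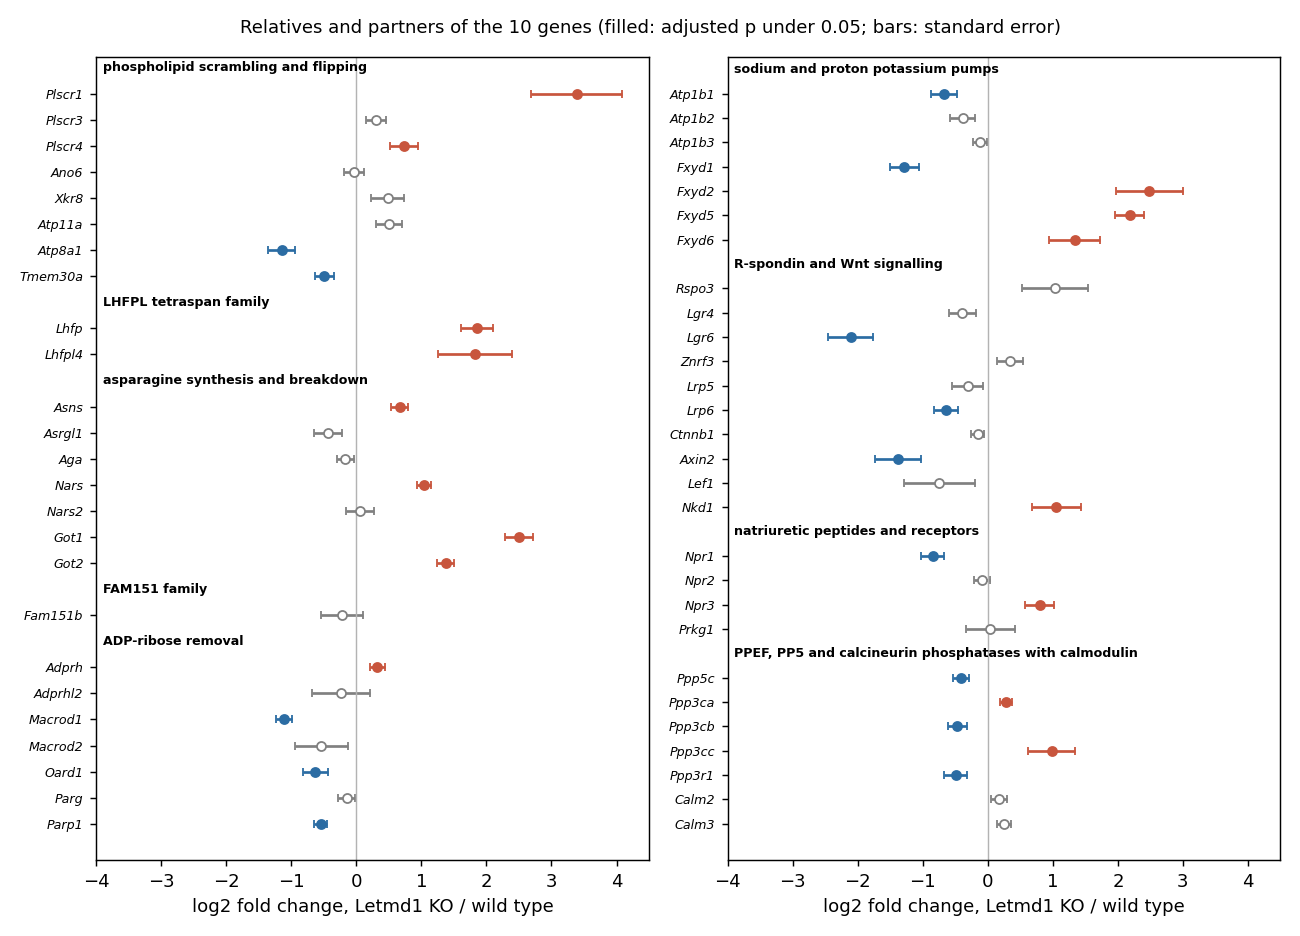
Log2 fold change (Letmd1 KO over wild type, bars are standard errors) of 53 of the 58 tested relatives and partners of the 10 genes, by list; filled red and blue points are the 16 higher and 14 lower genes at an adjusted p under 0.05 and open points the 23 others. In most lists filled points lie on both sides of 0, and Plscr1 at 3.39 is farthest from it.

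9130401M01Rik, a protein-coding gene on chromosome 15 from 58022259 to 58034325 (minus strand) with no settled name, had 405, 386 and 343 counts across the wild-type mice, or 43.7, 40.9 and 44.7 CPM. It had 5626, 4616 and 11817 counts in the KO mice, or 618, 611 and 695 CPM. These were among the steadiest values of the 10 genes, with mice of a genotype within 1.14-fold in the KO and a coefficient of variation of 4.55% in the wild type. The level went from 43.1 ± 1.96 to 641 ± 46.6 CPM (SD, n = 3 each), 14.9-fold higher in KO BAT at a log2 fold change of 3.90 (standard error 0.12).

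The read-through gene Gm29394 overlaps 9130401M01Rik on the same strand and shares 149 bases of its last 500 bases without a mismatch. Gm29394 has no row in the count files, so within the shared bases its reads cannot be told apart from those of 9130401M01Rik. The annotated 3′ ends differ, at 58028243 for Gm29394 and at 58022259 for 9130401M01Rik. How many reads fell in the shared bases was not tested. Of the nearest genes, Zhx1 and Tbc1d31 did not pass (-0.08 and 0.43), nor did Fam83a (0.30), and Atad2, the second gene on the far side, rose from 36, 42 and 32 counts to 143, 90 and 194 (log2 fold change 1.64, edgeR adjusted p = 0.000382).

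Fam151a, on chromosome 4 from 106733889 to 106748292 (plus strand), had 251, 402 and 564 counts across the wild-type mice, or 27.1, 42.6 and 73.5 CPM. It had 8, 10 and 23 counts in the KO mice, or 0.879, 1.32 and 1.35 CPM. The wild-type mice spanned 2.72-fold, and the lowest of them stood 20-fold above the highest KO mouse. The level went from 47.7 ± 23.7 to 1.19 ± 0.265 CPM (SD, n = 3 each), 40.3-fold lower in KO BAT at a log2 fold change of -5.29 (standard error 0.42). Its only relative, Fam151b, had a log2 fold change of -0.22 (edgeR adjusted p = 0.614).

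The last exon of Fam151a, 754 bases from 106747539 to 106748292, lies wholly inside the last exon of Acot11, an acyl-CoA thioesterase gene on the opposite strand, whose last exon runs from 106744555 to 106748484. Acot11 had 1919, 3313 and 3086 counts in wild-type and 80, 56 and 182 in KO mice, at a log2 fold change of -5.13 (standard error 0.28, edgeR adjusted p = 3.31e-06). Fam151a counts were 13.1%, 12.1% and 18.3% of Acot11 counts across the wild-type mice against 10%, 17.9% and 12.6% in the KO mice, so the share overlapped between the genotypes. Because the use of strand in counting is not given in the sources used here, reads of Fam151a and of Acot11 cannot be told apart, and the difference of Fam151a cannot be separated from that of Acot11.

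**Figure D4:**
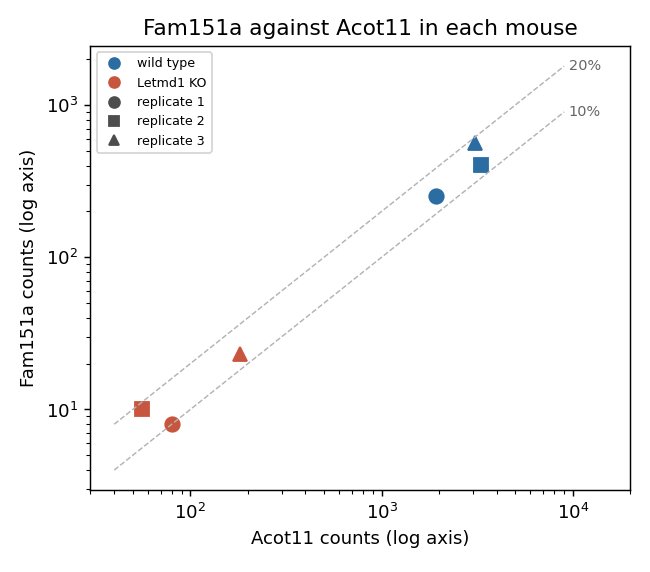
Counts of Fam151a against those of Acot11 in each mouse, both on log axes, with wild-type mice in blue, Letmd1 KO mice in red and one marker shape per replicate number; dashed lines mark 10% and 20% of the Acot11 count. All 6 mice lie on or between the lines, at shares from 10% to 18.3%.

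For the remaining 8 genes, the last 500 bases of their transcripts had no stretch of 75 or more bases at 90% identity or above in any other annotated transcript. Within these last 500 bases, sequence shared with another annotated gene was thus found for 9130401M01Rik and Fam151a alone. Other annotated genes with no row of counts also overlap some of the 8 genes, such as Rspo4os with Rspo4 and Gm32312 with Ostn. Whether their reads were counted was not tested. The neighbours of the 10 genes, taken as the 2 nearest protein-coding genes on each side that are in the files, were 39 genes. Of these, 27 were tested, 4 were higher and 4 lower, with a median of 0.06, where 46.0% of all genes tested passed. Among the 4 lower is Acot11, whose reads cannot be told apart from those of Fam151a, so its call may not be independent of the choice of the 10 genes. With library size alone as the scale, 15 neighbours were higher and 3 lower, where the median over all tested genes moved from 0.033 to 0.453. Beside Plscr1, Plscr4, Atad2 and Acot11, the neighbours that passed on the TMM scale were Il1rap, A530016L24Rik, Phka2 and Ssbp3. Il1rap, 577372 bases from Ostn, had 6, 4 and 6 counts against 22, 14 and 27 (log2 fold change 1.64, edgeR adjusted p = 0.017). A530016L24Rik, 361889 bases from Aspg, was at -2.11 (edgeR adjusted p = 0.00233). Phka2, 24216 bases from Ppef1, was at -1.10 (edgeR adjusted p = 0.000114). Ssbp3, 162409 bases from Fam151a, was at -0.43 (edgeR adjusted p = 0.0073). The call of Il1rap was lost without wild-type mouse 2 or KO mouse 1 (1.41 and 1.46) and after quantile normalization (0.66), and that of Ssbp3 with library size alone (-0.00446) and after quantile normalization (-0.23). Phka2 moved against its neighbour Ppef1, whereas the distant Il1rap moved with Ostn. Uts2b, only 2110 bases from Ostn, had at most 7 counts per mouse and was not tested.

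Over all lists, 34 of 58 tested relatives and partners passed the test, 18 higher and 16 lower, with a median of -0.06. Over all genes tested, 46.0% passed, 23.7% higher and 22.3% lower. With library size alone, 28 relatives and partners were higher and 7 lower. Of the 34 calls, 15 held under every alternative run. Of the 26 direct relatives of the 10 genes that are in the files, 15 were tested, 5 were higher (Plscr1, Plscr4, Lhfp, Lhfpl4 and Adprh) and 2 lower (Atp1b1 and Ppp5c).

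Each of the 10 genes was also compared with all genes tested by the root mean square difference of centred log2 CPM over the 6 mice, in which 0 is the same pattern. The log2 CPM carried a prior count of 2, which raises genes with 0 counts, so that a small value of this measure does not mean an equal fold change, and it is a description only. For 9130401M01Rik these were Tnip3 (0.0766) and Fads3 (0.0957), the closest of all 10 genes. For Lhfpl2 they were Loxl4 (0.211) and Phgdh (0.256), for Ostn Gadd45a (0.179) and Raet1c (0.233), and for Ppef1 Ptx3 (0.299) and Itgad (0.331). For Plscr2 they were Akr1b7 (0.336) and Slit1 (0.612).

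Among the genes higher in wild-type BAT, Atp4b was likest to Elovl3 (0.271), a fatty acid elongase of brown adipocytes, and Sorcs2 (0.316). Elovl3 had 157, 382 and 268 counts in wild-type and 7, 22 and 6 in KO mice, so that mouse 2 was highest of its genotype for both genes in both genotypes. Fam151a was likest to Acot11 (0.284) and Plet1os (0.361), Adprhl1 to Acot11 (0.267) and Plet1os (0.472), Rspo4 to Plet1os (0.418) and Acot11 (0.42), and Aspg to Plet1os (0.346) and the receptor kinase Ntrk3 (0.349). Acot11 and Plet1os thus recurred for 3 and 4 of these 5 genes. Among the 3 is Fam151a, whose reads cannot be told apart from those of Acot11. The 5 genes were chosen for large genotype differences, so the measure favours genes with a like difference, and nothing is read from the recurrence. Within the set, Rspo4 and Fam151a were closest to each other (0.271), with wild-type mouse 3 highest and wild-type mouse 1 lowest for both.

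Markers of other cell types moved with the genotype. All 13 macrophage markers were higher in KO BAT, with summed levels of 248, 183 and 259 CPM in wild-type and 1752, 3706 and 1511 CPM in KO mice. So were 7 of 7 markers of fibroblasts and progenitors (1463 to 2006 CPM in wild-type, 3965 to 6714 CPM in KO mice) and 6 of 9 of Schwann cells and nerve (323 to 344 and 459 to 626 CPM in wild-type and KO mice). The part of these cells in the levels of the 5 genes higher in KO BAT was not tested. The marker Gpnmb alone gave 1014 CPM of the sum in KO mouse 2, and without it, a choice made after seeing the data, the sums were 1688, 2692 and 1470 CPM in the KO mice. Of the 5 genes higher in KO BAT, KO mouse 2 was the highest of the 3 for Lhfpl2 (93.4 CPM), lay between the others for Ppef1 (13.1 CPM) and was the lowest for Plscr2 (111 CPM), 9130401M01Rik (611 CPM) and Ostn (6.35 CPM).

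Ostn is known from muscle and bone, and muscle lies next to the depot. The summed level of the skeletal muscle markers was 85.5, 527 and 97.8 CPM in the wild-type mice against 482, 374 and 1372 CPM in the KO mice, and 2 of 14 tested markers were higher (Myh1 and Myh2). The muscle genes Myh4, Ckm and Pvalb were at 0 in wild-type mice 1 and 3. Most of the sum in those 2 mice was Myl1, and without Myl1, left out after seeing the data, the sums were 8.52, 397 and 6.52 CPM in the wild-type mice against 419, 303 and 1217 CPM in the KO mice. On either sum wild-type mouse 2, with 0 counts of Ostn, was above KO mouse 2, with 48, and KO mouse 3 was the highest for both the markers and Ostn. The part of muscle RNA in the level of Ostn was not tested. The osteoblast markers Sp7 and Ibsp were at 0 in all 6 mice and the osteoblast sum was at most 0.794 CPM.

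**Figure D5:**
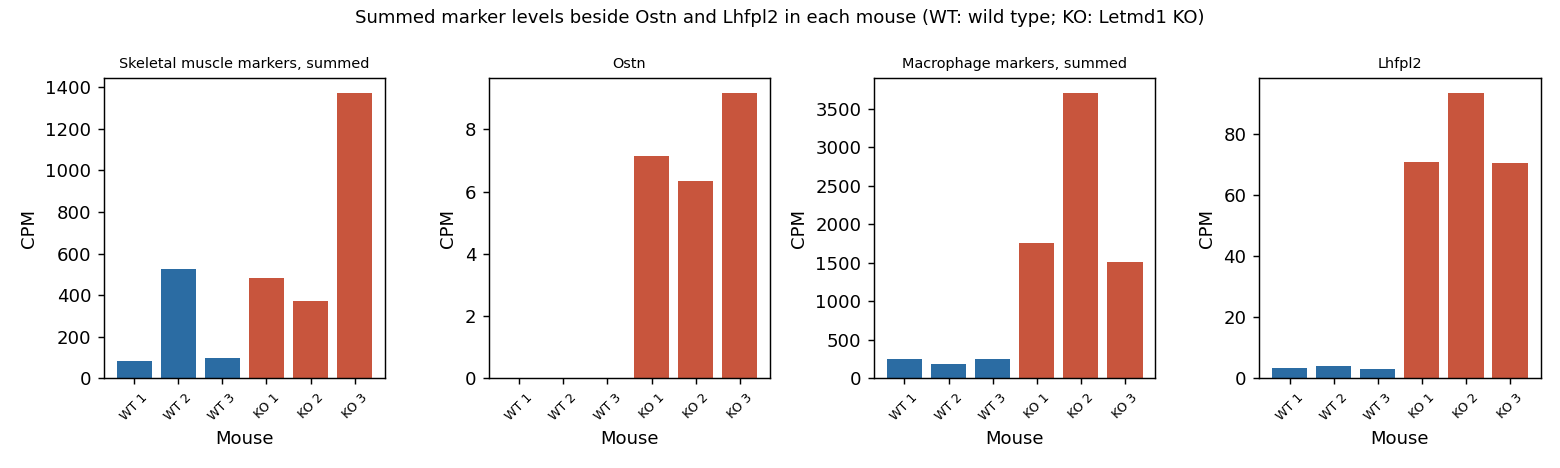
Summed CPM of the skeletal muscle markers, CPM of Ostn, summed CPM of the macrophage markers and CPM of Lhfpl2, one bar per mouse, wild type in blue and Letmd1 KO in red. Wild-type mouse 2 has a muscle sum of 527 CPM and no Ostn, and KO mouse 2 has the highest macrophage sum and the highest Lhfpl2 level.

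Among the other marker lists, 3 of 8 endothelial genes were lower and 1 higher, 0 of 5 tested erythroid genes passed, 1 of 2 tested lymphocyte genes and 2 of 3 tested white adipocyte genes were higher. The kidney proximal tubule markers, set beside Fam151a because of its known expression in kidney, summed to between 0.397 and 2.12 CPM, with Slc34a1, Lrp2 and Slc22a6 at 0 in all mice. Those of the parietal cell, the osteoblast and the kidney tubule were too low to be tested.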

How the data were processed

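BAT of 3 wild-type and 3 Letmd1 KO mice was measured with QuantSeq 3′ libraries. Single-end reads of 75 bases were aligned and assigned to genes, multiple alignments included, by the authors, who deposited raw counts for every mouse. The submitters' processing notes name Bowtie2, bedtools and the mm10 build; versions, annotation and strand use are not given in the sources used here, and the quantile normalization the study names is not in these counts. Groups followed the genotype labels. Replicates carry separate numbers, with no further word on how the mice were paired or sampled, so p-values measure the spread between these samples. All pairs within a genotype differed beyond counting noise (chi-square over its degrees of freedom, 11.5 to 34).

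From the counts, CPM and log2 CPM (prior count of 2) on TMM-scaled libraries and the quasi-likelihood test of edgeR, adjusted over 12995 rows by the method of Benjamini and Hochberg (minimum count of 10, minimum total of 15, threshold 0.05) were computed in R 4.3.3 with edgeR 4.0.16. Of all rows, 5588 had no counts. Counting intervals were exact Poisson intervals at 95%. Steps were tested on simulated counts, where 150 of 196 changed genes were found by edgeR, with 8 false calls among 12479 others. Positions and transcripts came from GENCODE on GRCm38, the build also called mm10, and promoters from RefSeq.

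The 10 genes and all lists were chosen with earlier results of these data known. Named are the 10 genes, Letmd1, their relatives, other partners and neighbours past the threshold, the 2 likest genes of each, Ucp1, Cidea and markers that run with one of the 10 genes; partners and neighbours that did not pass are named for completeness, after their values were seen. Alternatives were library size alone, DESeq2 1.42.0, quantile normalization with limma 3.58.1, no filter, a mean of at least 50 counts, a prior count of 0.5, the replicate number as a block, a floor of 10 counts and leaving out each mouse. The sequences of the proteins were not used here. A few partner genes are counted in their lists but not reported here.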

Additional observations from a re-analysis of the deposited data

How the results depend on the processing

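All 10 genes kept their direction under the 11 alternatives run for each. Their choice for large differences made this near certain, so nothing is read from it. Their log2 fold changes moved most where a genotype was near 0: Atp4b lay between -9.20 without KO mouse 2 and -4.77 without KO mouse 3, Adprhl1 reached -7.31 without KO mouse 3, and after quantile normalization Rspo4, Ostn and Ppef1 stood at -5.00, 4.23 and 5.05. For the graded genes the ranges were 3.83 to 4.32 for 9130401M01Rik, 4.27 to 4.92 for Lhfpl2, -4.40 to -3.87 for Aspg and -5.58 to -4.85 for Fam151a. Plscr2 lay between 7.04 and 8.38.

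With library size alone, 18 neighbours passed the test (15 higher and 3 lower), all genes gave 5899 higher and 1368 lower instead of 3082 and 2896, and Ppp5c reversed to 0.00713; the cause was not tested. With a floor of 10 counts, which admits more rows by its construction, 354 genes were switches. Leaving out 1 mouse gave 91 to 168 switches, 23 to 29 partners, 6 to 9 neighbours and 4842 to 5868 genes. Counts of partners were 35, 33, 30, 32 and 30 with library size alone, DESeq2, quantile normalization, no filter and the filter at a mean of 50.

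Deviations of same-numbered mice from the mean of their genotype correlated at 0.07, -0.11 and -0.09. Those of wild-type mouse 2 and KO mouse 3 correlated at 0.19. Such values cannot show whether the replicate numbers paired the mice. With the replicate number as a block, 5599 genes, 31 partners and 8 neighbours passed, and Adprh, Nkd1 and Ppp3ca (0.32, 1.10 and 0.28) did not.

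With 3 mice per genotype and libraries of 6669577 to 14574273 counts, a gene at 0 counts is bounded only to the floor, so the size of the difference of Rspo4, Ostn and Ppef1 is known only from below.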
